A study of Mus musculus with 2 samples.

Results

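Interferon-stimulated genes are the genes that cells switch on when an interferon binds its receptor. The 34 mouse genes described here were a given list, and they were read by gene symbol from single-cell RNA sequencing counts of 2 mouse ovarian tumor libraries. Rows were found for 32 of the 34, among 32285 genes in all, and Mx1 and Mx2 were not analysed here. The tumors came from KPCA cells, a mouse fallopian tube epithelial line that models high-grade serous ovarian cancer. KPCA_FSTKO cells lack follistatin (Fst). KPCA_FSTKO_hFSTL3 cells carry the same Fst knockout and also a plasmid for human FSTL3, and they are 1 stable clone chosen under geneticin for its FSTL3 secretion. Both lines were grafted into the peritoneal cavity of female C57BL/6J mice aged 12 to 16 weeks, without further treatment, and omental tumors were taken on day 10. Each library pooled 4 tumors, so that there was 1 library per genotype, no replicate and no test. Intervals are given at 95% and were computed exactly from the counts. They cover counting error only. A difference between the libraries cannot be told apart from a difference between pools, dissociations or clones.

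Type I interferons (alpha and beta) signal through the receptor chains IFNAR1 and IFNAR2 and the kinases JAK1 and TYK2. A complex with STAT2 and IRF9 then binds the interferon-stimulated response element (ISRE) in front of its target genes. Interferon gamma, which comes mainly from T and natural killer cells, signals through IFNGR1 and IFNGR2, and many of its target genes carry the gamma-activated site (GAS). The induced genes code for proteins that block viral replication, sense foreign nucleic acid, attack intracellular microbes, and amplify or dampen the response itself.

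Letters of the ISRE core were found near the start of more than every second gene that could be read, and GAS letters near fewer. RefSeq promoter windows of 300 bases (250 before the transcription start, mouse build GRCm38.p6) were matched for 26 of the 32, and Zbp1, Parp14, Dhx58, Usp18, Ifi27l2a and Rtp4 had no window. The ISRE core, GAAA followed by any 2 bases and GAAA again on either strand, was present in 15 of the 26 windows (57.7%) and in 3.99% of the windows of 27025 genes. The longer form, the core followed by CT, was present in 10 of the 26 and in 0.303% of all windows. The GAS letters TTCNNNGAA, which read the same on both strands, were present in 6 of the 26 (23.1%; Ifit2, Bst2, Oas1a, Irf1, Igtp and Ifi35), beside 9.55% of all windows. The matches of Ifih1, Ddx58 and Ifi35 lay after the start. Bst2, Oas1a and Igtp had both, and Cmpk2, Samd9l, Oasl1, Oasl2, Irf7, Irf9, Ifi44 and Xaf1 had neither within these bases. A match of letters is a description and not a shown binding site. The 160 bases before the start are printed for Isg15, Ifit1, Rsad2, Gbp2 and Irf1. With the top cell kept, Isg15 and Ifit1 had the highest correlations with the other members over cancer cells among members with at least 100 thinned UMIs. Rsad2 differed most between the libraries in the classed cancer cells. Gbp2 was spread unevenly among cancer cells, and Irf1 had a GAS match and no ISRE core. Capitals mark the ISRE core in the first 4 sequences, where 3 overlapping matches in Isg15 form 1 run, and the GAS letters in Irf1. Isg15 is chr4:156200819-156200978 on the minus strand, Ifit1 chr19:34640729-34640888 on the plus strand, Rsad2 chr12:26456453-26456612 on the minus strand, Gbp2 chr3:142620503-142620662 on the plus strand and Irf1 chr11:53769854-53770013 on the plus strand.
Isg15: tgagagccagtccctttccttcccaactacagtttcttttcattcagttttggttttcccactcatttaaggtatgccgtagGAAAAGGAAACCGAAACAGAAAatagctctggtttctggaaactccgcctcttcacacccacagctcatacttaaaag
Ifit1: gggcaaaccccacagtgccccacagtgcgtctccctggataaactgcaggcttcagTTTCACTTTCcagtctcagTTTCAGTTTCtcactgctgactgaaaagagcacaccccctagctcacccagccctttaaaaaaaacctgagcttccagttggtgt
Rsad2: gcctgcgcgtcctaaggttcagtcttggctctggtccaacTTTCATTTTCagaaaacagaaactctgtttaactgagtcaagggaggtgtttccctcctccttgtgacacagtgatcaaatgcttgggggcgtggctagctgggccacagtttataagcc
Gbp2: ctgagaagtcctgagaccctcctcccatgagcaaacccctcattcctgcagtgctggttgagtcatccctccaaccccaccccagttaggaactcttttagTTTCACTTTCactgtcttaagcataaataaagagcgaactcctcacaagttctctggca
Irf1: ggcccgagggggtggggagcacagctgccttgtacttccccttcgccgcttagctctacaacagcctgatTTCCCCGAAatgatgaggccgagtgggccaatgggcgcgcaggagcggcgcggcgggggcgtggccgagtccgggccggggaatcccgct

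The KPCA_FSTKO library held 168214773 UMIs (unique molecular identifiers, 1 per captured transcript) in 7582 barcodes, and the KPCA_FSTKO_hFSTL3 library 80391504 UMIs in 4244 barcodes. A filter of under 20% mitochondrial UMIs and over 200 and under 8000 genes left 6777 and 4041 barcodes, with medians of 17253 and 15071 UMIs and of 3.54% and 10.7% mitochondrial UMIs. Cells were put in classes by marker genes, and a barcode with markers of more than 1 class was set aside, except between related classes. Mesothelial cells could also carry fibroblast and cancer markers, mural cells fibroblast markers, and monocytes and dendritic cells macrophage markers. The gates left 3751 cancer cells, 822 macrophages and 315 fibroblasts in KPCA_FSTKO and 238, 132 and 53 in KPCA_FSTKO_hFSTL3. Of the KPCA_FSTKO_hFSTL3 barcodes, 3239 (80.2%) carried markers of several classes, against 838 (12.4%) in KPCA_FSTKO, and their median for pancreatic acinar genes was 9504 CPM (the UMIs of a gene scaled to 1000000 UMIs of the cell or class). Cancer cells of KPCA_FSTKO had the highest class level for 11 of the 12 markers of the class, and those of KPCA_FSTKO_hFSTL3 for 10 of 12. Macrophages were highest for 11 of their 12 markers in KPCA_FSTKO and for 3 of 12 in KPCA_FSTKO_hFSTL3, and fibroblasts for 7 and 5 of 10. Small classes such as monocytes, mural and mesothelial cells also count here. Most of these markers also set the gates, so these counts are no independent test of the classes. Acinar genes were also higher in the classed cells of KPCA_FSTKO_hFSTL3, with medians of 452 against 22.4 CPM in cancer cells and 1003 against 53.3 CPM in macrophages. Their part in the values below was not tested. The 2 libraries shared 10 barcodes after the filter. Mouse Fst was counted at 5.02 CPM in KPCA_FSTKO cancer cells and 7.45 CPM in KPCA_FSTKO_hFSTL3 cancer cells, beside 134 and 205 CPM in fibroblasts, and a 3′ tag does not show whether the coding sequence is intact. Mouse Fstl3 was at 12.1 and 8.63 CPM in cancer cells, and human FSTL3 has no row in a mouse reference.

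The interferon-stimulated genes made up a larger share of UMIs in stromal and immune cells than in cancer cells, in both libraries. Summed over the 32 genes, KPCA_FSTKO cancer cells held 364 CPM (interval 361 to 368, 39726 UMIs), macrophages 656 CPM (641 to 671, 7369 UMIs) and fibroblasts 842 CPM (819 to 866, 4859 UMIs). The macrophage level was 1.80 times the cancer level (1.76 to 1.85), and the fibroblast level 2.31 times (2.24 to 2.38). In KPCA_FSTKO_hFSTL3 the same order was seen, with 297 CPM (286 to 308, 2753 UMIs) in cancer cells, 756 CPM (723 to 791) in macrophages and 976 CPM (923 to 1031) in fibroblasts, or 2.55 times (2.40 to 2.70) and 3.28 times (3.07 to 3.51) the cancer level. Cancer cells, the most numerous class, held 65.3% of all member UMIs of the filtered KPCA_FSTKO library. Their 364 CPM was below the 428 CPM of that whole library, so this share is less than their share of all UMIs.

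**Figure D1:**
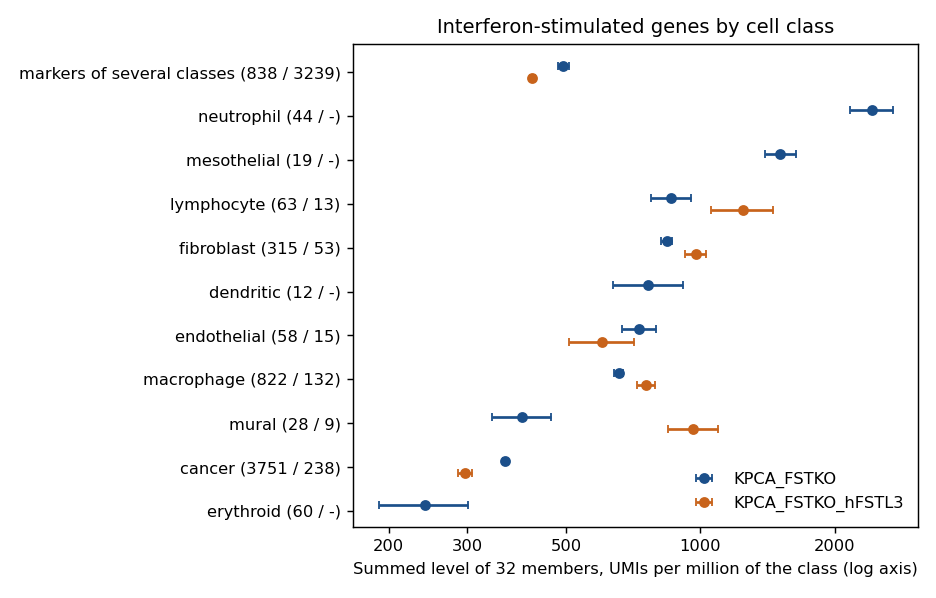
Summed level of the 32 interferon-stimulated genes (CPM, horizontal log axis) in each marker-gated cell class of at least 9 cells and in barcodes with markers of several classes, for the 2 libraries (cell numbers in brackets), with exact 95% Poisson intervals that cover counting error only. Cancer cells are at 364 and 297 CPM, below macrophages (656 and 756) and fibroblasts (842 and 976) of the same library.

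Small classes held the highest levels. In KPCA_FSTKO, 44 neutrophils were at 2422 CPM (2165 to 2701), 19 mesothelial cells at 1512 CPM (1395 to 1636), 63 lymphocytes at 862 CPM (776 to 954), 12 dendritic cells at 765 CPM (637 to 912) and 58 endothelial cells at 731 CPM (668 to 798). Mural cells (399 CPM, 341 to 463) and erythroid cells (241 CPM, 190 to 301) of KPCA_FSTKO were near or below cancer cells, while the 9 mural cells of KPCA_FSTKO_hFSTL3 were at 964 CPM (845 to 1096), above the 297 CPM of its cancer cells. Erythroid markers had a median of 877370 CPM in the KPCA_FSTKO erythroid cells, which left few UMIs for all other genes. Their 241 CPM is a share of all UMIs and does not show a low level among the other genes. In KPCA_FSTKO the intervals of fibroblasts, lymphocytes and dendritic cells overlap, as do those of mural and cancer cells. The interval of endothelial cells overlaps those of lymphocytes, dendritic cells and macrophages, and that of dendritic cells also overlaps that of macrophages. Those neighbours are not ordered by these counts. The neutrophil level rested on 323 UMIs, of which 2 cells held 18.9% and 21.7%, and the median over single neutrophils was 777 CPM. In KPCA_FSTKO_hFSTL3, 13 lymphocytes stood at 1245 CPM, and 1 of them held 51.3% of the 158 UMIs, 53 of them from Ifi27l2a. No neutrophil was found in that library. The mesothelial cells of KPCA_FSTKO had medians of 8402 CPM for fibroblast markers and 1115 CPM for cancer markers. Its mural cells had a median of 3610 CPM for fibroblast markers.

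Among the antiviral effectors, Bst2 (tetherin, which holds budding virus at the cell surface) had most UMIs of all 32 genes, 18324 over both libraries. Its level in KPCA_FSTKO was 82.3 CPM in cancer cells, 96.2 in macrophages, 141 in fibroblasts and 194 in endothelial cells, a narrow range beside the other genes. Samd9l, a restriction factor of the SAMD9 family, was as even, with 31.3 CPM in cancer cells, 32.2 in macrophages and 25.1 in fibroblasts. Zbp1, a sensor of Z-form nucleic acid, was at 12.2, 15.7 and 41.8 CPM. Parp14, an ADP-ribosyltransferase, was at 7.64, 33.2 and 28.9 CPM and reached 86.2 CPM in lymphocytes. Isg15, a ubiquitin-like protein that is attached to other proteins, was at 6.52 CPM in cancer cells, 7.57 in macrophages and 34.7 in fibroblasts, and at 187 CPM in neutrophils.

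The IFIT proteins bind viral RNA. Ifit1 was at 7.14 CPM in KPCA_FSTKO cancer cells, 6.77 in macrophages and 22.9 in fibroblasts, and fibroblasts had its highest class level among classes of at least 40 cells. Ifit2 was at 6.80, 10.7 and 8.67 CPM, with its highest level in macrophages. Ifit3 was at 3.60, 3.12 and 10.2 CPM. Ifit3b, a near copy of Ifit3 whose reads could have been split between both, had 93 UMIs in cancer cells (0.853 CPM). Cmpk2, the nucleotide kinase gene next to Rsad2, was close to the detection limit, with 0.110 CPM in cancer cells, 3.29 in macrophages and 1.56 in fibroblasts.

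Rsad2 (viperin, which makes a chain-terminating nucleotide) had an uneven pattern. It was at 1.16 CPM in KPCA_FSTKO cancer cells, 6.24 in fibroblasts, 36.6 in macrophages and 27.9 in endothelial cells. Single cells carried much of this: 1 cancer cell held 93 of the 126 cancer UMIs, 1 macrophage 145 of the 411 macrophage UMIs, and 1 neutrophil 30 of the 44 UMIs behind a neutrophil level of 330 CPM. Erythroid cells differed from that pattern. They had 50 Rsad2 UMIs (157 CPM, 116 to 206) spread over 26 of 60 cells with at most 7 in any cell, and these were 50 of the 77 member UMIs of the class. The KPCA_FSTKO_hFSTL3 erythroid cells had 7 Rsad2 UMIs in 4 of 7 cells (142 CPM), of 9 member UMIs in all.

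The 2-5A synthetase family makes the second messenger that activates RNase L, although Oasl1 lacks that activity and instead represses translation of Irf7. Oasl1 was 1 of the few genes that were higher in cancer cells, at 22.9 CPM in KPCA_FSTKO against 8.01 in macrophages and 14.2 in fibroblasts. Oasl2 was at 9.68 CPM in cancer cells, 9.97 in macrophages and 65.2 in fibroblasts. Oas1a was at 0.275, 6.23 and 5.20 CPM. Reads of these related genes could have been assigned among family members.

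The transcription factors of the response were led by Irf1, which interferon gamma induces strongly, with 8534 UMIs over both libraries. Irf1 was at 45.6 CPM in KPCA_FSTKO cancer cells, 29.0 in macrophages and 53.5 in fibroblasts. Irf7, the amplifier of type I interferon production, was at 4.10, 8.73 and 36.0 CPM, with its highest class level in fibroblasts. Irf9 (6.85, 15.9 and 18.4 CPM) and Stat2 (7.70, 17.0 and 18.7 CPM), which act in 1 complex, were both lowest in cancer cells of these 3 classes. Of the same 3 classes, cancer cells were also lowest for the RNA sensors: Ifih1 (MDA5) at 5.10, 27.1 and 22.2 CPM, Ddx58 (RIG-I) at 7.58, 12.9 and 24.6 CPM, and Dhx58 (LGP2), which modulates both, at 0.440, 9.79 and 3.64 CPM. Usp18, which removes ISG15 from proteins and blocks the type I receptor, was at 1.78, 2.85 and 10.2 CPM.

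The interferon-inducible GTPases act on membranes around intracellular microbes. Gbp2 was at 16.8 CPM in KPCA_FSTKO cancer cells, 48.2 in macrophages and 40.4 in fibroblasts, and Gbp3 at 4.36, 15.0 and 11.1 CPM. Irgm1 went the other way for macrophages, with 16.2 CPM in cancer cells, 6.59 in macrophages and 22.5 in fibroblasts. Igtp was at 6.66, 7.21 and 21.3 CPM. Of the remaining genes, Ifi27l2a, a small mitochondrial membrane protein gene, had the widest range, from 2.07 CPM in cancer cells to 108 in macrophages, 61.7 in fibroblasts and 149 in lymphocytes. Trim30a, a negative regulator of innate signaling, was at 9.85, 46.7 and 28.1 CPM, Ifi35 at 19.0, 18.0 and 19.1, Xaf1, a pro-apoptotic protein, at 12.02, 8.19 and 19.8, Rtp4 at 3.34, 4.36 and 13.3, and Ifi44 at 2.47, 0.712 and 9.53 CPM. Among classes of at least 40 cells, the highest level of KPCA_FSTKO was in neutrophils for 19 of the 32 genes, endothelial cells for 5, lymphocytes for 4, fibroblasts for 2 and macrophages for 2, and in cancer cells for 0. For 31 of the 32, those with at least 100 UMIs over these classes, neutrophils had 19, where they had 16.1% of 13946 genes, endothelial cells 4 (18.4% of genes), lymphocytes 4 (20.1%), fibroblasts 2 (13.8%), macrophages 2 (8.53%), cancer cells 0 (22.2%) and erythroid cells 0 (0.896%). The neutrophil level rested on fewer than 10 UMIs for 8 of the 19. Of the 3 classes of that size in KPCA_FSTKO_hFSTL3, fibroblasts were highest for 13 of 20 genes with enough UMIs, beside 27.6% of 9656 genes, macrophages for 5, beside 31.9%, and cancer cells for 2, Samd9l and Oasl1, beside 40.5%.

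**Figure D2:**
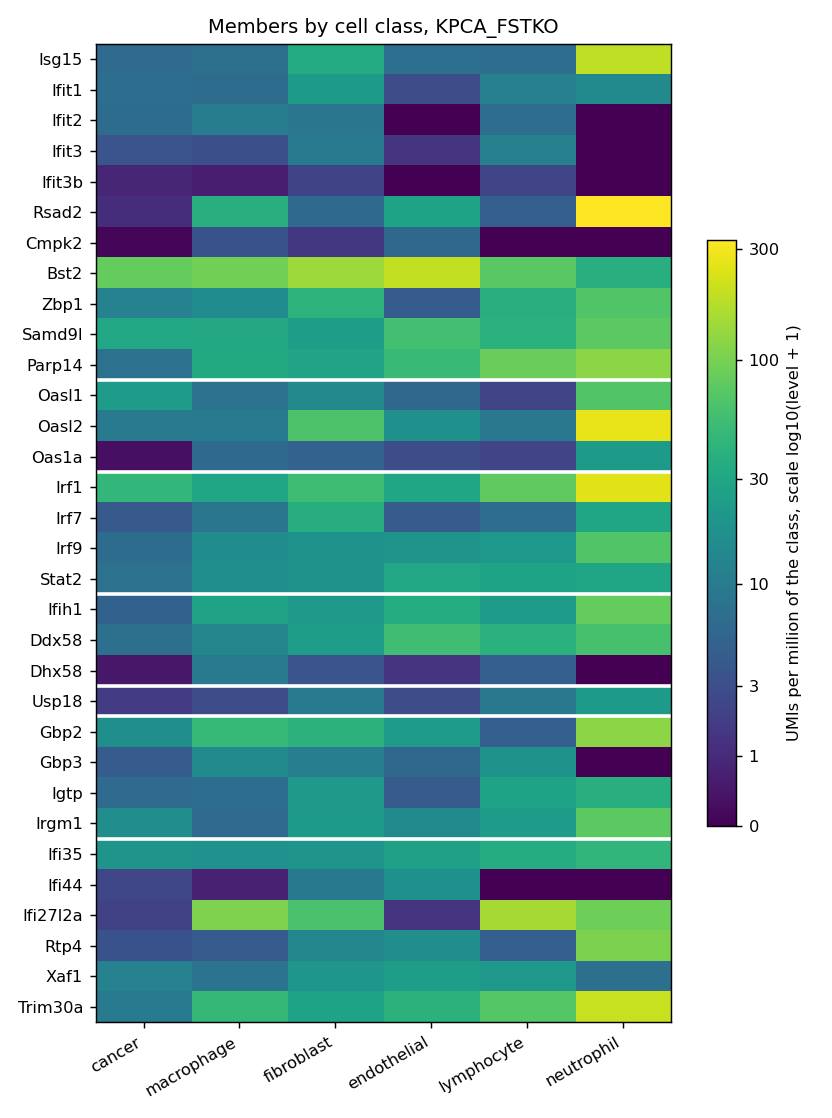
Level of each of the 32 genes in 6 cell classes of KPCA_FSTKO, as log-scaled CPM in colour, with genes in rows ordered by role (white lines part the roles) and classes in columns. Ifi27l2a (2.07 CPM in KPCA_FSTKO cancer cells, 108 in macrophages) and Rsad2 (1.16 and 36.6) change colour strongly along a row, while Samd9l (31.3 and 32.2) and Ifi35 (19.0 and 18.0) are close in these classes.

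To set these class differences beside those of all genes, a gene was counted when it had at least 100 UMIs over both sums and a ratio of at least 2 either way. Between macrophages and cancer cells of KPCA_FSTKO, 12 of 31 members with enough UMIs were higher in macrophages, where 16.2% of 13466 genes were, and 3 were lower, where 32.5% of genes were. Their median log2 ratio was 0.39, beside -0.43 over all genes. The 12 were Ifi27l2a (51.9-fold, 45.0 to 60.1), Rsad2 (31.7-fold, 25.9 to 39.0), Oas1a (22.7-fold), Dhx58 (22.2-fold), Ifih1 (5.31-fold), Trim30a (4.75-fold), Parp14 (4.35-fold), Gbp3 (3.45-fold), Gbp2 (2.87-fold), Irf9 (2.33-fold), Stat2 (2.21-fold) and Irf7 (2.13-fold). Lower were Ifi44 at 0.289 times, Oasl1 at 0.349 times and Irgm1 at 0.407 times the cancer level. In KPCA_FSTKO_hFSTL3, 8 of 16 members were higher in macrophages, beside 17.9% of 9148 genes, with Ifi27l2a (40.9-fold), Ifih1 (15.8-fold) and Trim30a (12.5-fold) leading. Oasl1 alone of these 16 was lower at 2-fold, at 0.447 times, beside 25.4% of genes. The median ratio of those 16 was 0.97 on the log2 scale, against -0.23 over all genes. Macrophage markers themselves had a median of 43.5 CPM in KPCA_FSTKO cancer cells and 18588 CPM in macrophages.

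Fibroblasts exceeded cancer cells in more of the genes. In KPCA_FSTKO, 21 of 29 members were at least 2-fold higher in fibroblasts, where 14.4% of 13239 genes were, and 0 were lower, where 20.2% of genes were. The median log2 ratio was 1.51, beside -0.21 over all genes. Ifi27l2a led at 29.8-fold (25.1 to 35.3), followed by Irf7 at 8.79-fold, Oasl2 at 6.73-fold, Usp18 at 5.75-fold, Rsad2 at 5.40-fold and Isg15 at 5.31-fold. The remaining 15 were Ifih1, Rtp4, Ifi44, Parp14, Zbp1, Ddx58, Ifit1, Igtp, Trim30a, Ifit3, Irf9, Ifit3b, Gbp3, Stat2 and Gbp2, from 4.35-fold down to 2.40-fold. In KPCA_FSTKO_hFSTL3, 7 of 12 members were higher in fibroblasts, beside 12.6% of 8740 genes, led by Oasl2 (13.9-fold, 9.89 to 19.6) and Isg15 (9.74-fold, 7.36 to 12.9). Oasl1 was lower at 0.495 times, beside 17.3% of genes. Directly against macrophages of KPCA_FSTKO, fibroblasts were higher in 9 of 27 members, beside 19.6% of 9994 genes, and lower in 2, beside 16.8%. Oasl2 (6.53-fold), Isg15 (4.58-fold) and Irf7 (4.13-fold) were on the fibroblast side, and Rsad2 (0.170 times) and Dhx58 (0.372 times) on the macrophage side.

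Cancer cells of KPCA_FSTKO_hFSTL3 held less of these genes than those of KPCA_FSTKO in the classed cells. The summed level was 297 against 364 CPM, a ratio of 0.815 (0.784 to 0.848) or -0.29 on the log2 scale. This direction depended on which barcodes were taken as cancer cells: with barcodes of several classes placed in the class of their largest marker score, 3359 cancer cells of KPCA_FSTKO_hFSTL3 were at 399.8 CPM and the log2 ratio turned to 0.13. Of 28 members with at least 100 UMIs, 5 were at least 2-fold lower in KPCA_FSTKO_hFSTL3, where 7.18% of 12959 genes were, and 0 were higher, where 3.09% of genes were. The ratio was below 1 for 23 of the 28, and the median was -0.46 on the log2 scale against -0.02 over all genes. With several-class barcodes placed, 1 of 30 was lower, beside 10.6% of 14436 genes, and 3 were higher, beside 10.7%, and 16 were above 1, with a median of 0.01 against -0.24 over all genes. The count of 5 was 9 with all deposited barcodes, 2 without the 5% of cells with most member UMIs and 2 with means of per-cell shares.

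The 5 lower genes were Rsad2, Usp18, Ifit1, Ifit3 and Ifih1. Ifit1 had 19 UMIs in KPCA_FSTKO_hFSTL3 cancer cells (2.05 CPM) and 779 in KPCA_FSTKO (7.14 CPM), a log2 ratio of -1.80 (-2.54 to -1.15). Ifit3 was at 1.29 against 3.60 CPM (-1.48) and Ifih1 at 2.16 against 5.10 CPM (-1.24). Usp18 rested on 3 UMIs against 194 (-2.46, -4.75 to -0.89), and Rsad2 on 1 against 126 (-3.42, -8.74 to -0.92). Without the single cell of highest member share in each library, Ifit1 was at -3.14, with 5 against 521 UMIs, Ifit3 at -2.05 and Usp18 at -2.40, while Rsad2 was left with 1 against 33 UMIs, too few for the count, at -1.49 with an interval of -6.83 to 1.09. With several-class barcodes placed, Rsad2 turned to 0.64, with 122 against 143 UMIs, and Ifit1 was at -0.44. Close behind the 5 were Trim30a (-0.87), Rtp4 (-0.86), Oasl2 (-0.73), Gbp3 (-0.69) and Ifit2 (-0.58). On the other side were Ifi27l2a at 0.74 (0.15 to 1.27), Isg15 at 0.57 (0.24 to 0.89), Irgm1 at 0.24, Samd9l at 0.12 and Parp14 at 0.00, the last turning below 0 with TMM scaling. Gbp2, Ifi35, Irf7, Bst2, Igtp, Stat2 and Ddx58 lay between -0.55 and -0.30. Zbp1, Xaf1, Irf9, Ifi44, Irf1 and Oasl1 lay between -0.19 and -0.06, each with an interval that included 0. Ifit3b, Cmpk2, Oas1a and Dhx58 had fewer than 100 UMIs over both libraries.

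**Figure D3:**
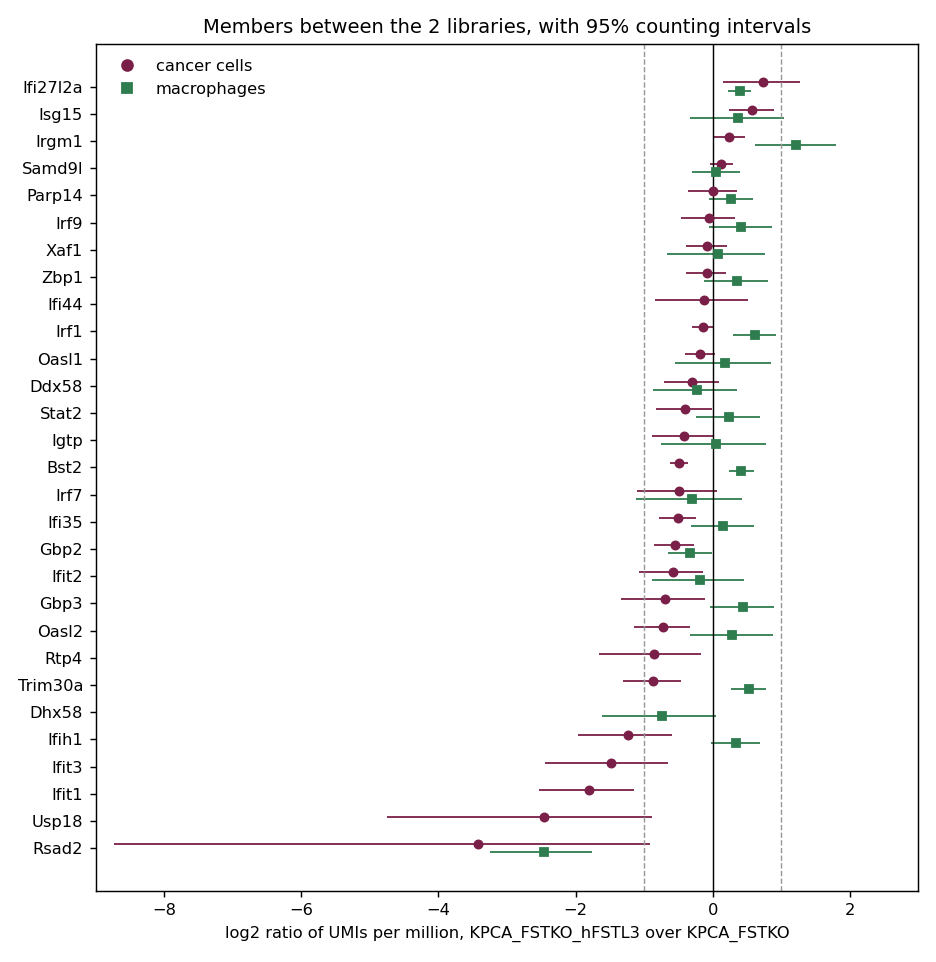
Log2 ratio of KPCA_FSTKO_hFSTL3 over KPCA_FSTKO (horizontal axis) for each member with at least 100 UMIs in cancer cells (circles) or macrophages (squares), with exact conditional binomial intervals (counting error only), a line at 0 and dashed lines at a 2-fold difference. In cancer cells 23 of 28 points lie below 0, from -3.42 for Rsad2 (1 UMI against 126, and 0.64 with several-class barcodes placed), and in macrophages 18 of 24 lie above 0 (10 of 24 with TMM factors of 1 fit over 6 class sums).

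In macrophages the summed level was higher in KPCA_FSTKO_hFSTL3, at 756 against 656 CPM, a ratio of 1.15 (1.10 to 1.21) or 0.20 on the log2 scale. Its direction depended on the scaling. With TMM factors of the 2 macrophage sums the value shrank to 0.06, and with TMM factors from 1 fit over the 6 sums of cancer cells, macrophages and fibroblasts it turned to -0.13, where the median over all genes was -0.23. Without the 1 macrophage of highest member share in each library it was 0.13. Of 24 members, 18 were above 1, where 63.0% of genes were, and the median log2 ratio was 0.25 against 0.10 over all genes. Igtp, Samd9l and Xaf1 came below 1 with the factors of the 2 sums, and Ifi35, Oasl1, Oasl2, Parp14 and Stat2 did so as well with those of the 6 sums, which left 10 of 24 above 1. Without the top macrophages 13 of the 24 were above 1, and Isg15 (-0.52), Igtp, Samd9l, Ifi35 and Oasl1 were not. Irgm1 was the 1 member at least 2-fold higher (15.3 against 6.59 CPM, log2 1.22, 0.62 to 1.79), where 1.84% of 8674 genes were, and it was at 0.94 without the top macrophages and 0.88 with the factors of the 6 sums. Rsad2 was the 1 member at least 2-fold lower, where 1.49% of genes were, with 17 against 411 UMIs (6.67 against 36.6 CPM, log2 -2.46, -3.25 to -1.76). Without the top macrophages it was at -3.10, with 7 against 266 UMIs. Without the 5% of macrophages with most member UMIs it was left with 5 against 44 UMIs, too few for the count, at -1.01. Irf1 (0.61), Trim30a (0.53), Gbp3 (0.44), Bst2 (0.42), Irf9 (0.41) and Ifi27l2a (0.39) followed Irgm1, and Dhx58 (-0.73), Gbp2 (-0.33) and Irf7 (-0.30) lay lowest after Rsad2.

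Fibroblasts gave a summed ratio of 1.16 (1.09 to 1.23), or 0.21 on the log2 scale, with 16 of 20 members above 1, where 59.0% of genes were, and a median of 0.24 against 0.08 over all genes. This direction depended on how many top cells were left out. In KPCA_FSTKO_hFSTL3, 2 cells held 11.8% and 14.2% of the member UMIs of the 53 fibroblasts. Without the 2 fibroblasts of highest member share in each library, the summed log2 ratio turned to -0.10. Then 8 of 20 members were above 1, while the median over all genes was 0.07. These 2 cells are a larger share of 53 fibroblasts than of 315. Without the 5% of fibroblasts with most members, an equal share of each library, the summed log2 ratio was 0.11 and 11 of 20 members were above 1. Parp14, Irf1, Samd9l and Trim30a were above 1 by so little that they came below 1 with TMM scaling, whose 2 forms gave summed log2 ratios of 0.09 and 0.04. Isg15 was at 94.6 CPM in the 53 fibroblasts of KPCA_FSTKO_hFSTL3 and 34.7 CPM in the 315 of KPCA_FSTKO, a log2 ratio of 1.45 (1.11 to 1.78), and it was the 1 member past 2-fold, where 1.44% of 7592 genes were higher and 2.08% lower. Of its 123 UMIs in KPCA_FSTKO_hFSTL3, 20 and 24 came from the 2 fibroblasts of highest member share, and without the top 2 in each library it was at 1.05. Gbp2 followed at 0.66 and Xaf1 at 0.49, and Ifi27l2a was lowest at -0.57.

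Within cancer cells of 1 library the response was unevenly held. Each cancer cell with at least 5000 UMIs was thinned to 5000, so that depth was equal, and the variance of the summed member count over its mean would be 1 for counting noise alone. Over 3465 of 3751 KPCA_FSTKO cancer cells the mean was 1.88 member UMIs and the variance over mean 5.41, or 4.75 without the top cell. No member UMI was seen in 29.4% of cells (27.8 to 30.9), where a Poisson count of this mean gives 15.3%. In 79 cells, 2.28% (1.81 to 2.83), there were 10 or more, where Poisson counts give 0.00275%, and the tenth of cells with the highest counts held 44.0% of member UMIs. In KPCA_FSTKO_hFSTL3, 223 of 238 cancer cells could be thinned, with a mean of 1.52, a variance over mean of 2.55, 35.9% of cells at 0 (Poisson 22.0%) and 3 cells with 10 or more. Macrophages and fibroblasts were uneven as well, with variance over mean of 23.4 and 4.54 in KPCA_FSTKO and 6.01 and 6.45 in KPCA_FSTKO_hFSTL3. The highest KPCA_FSTKO macrophage had 190 thinned member UMIs, beside a mean of 3.59, and the value of 23.4 was not computed without it.

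**Figure D4:**
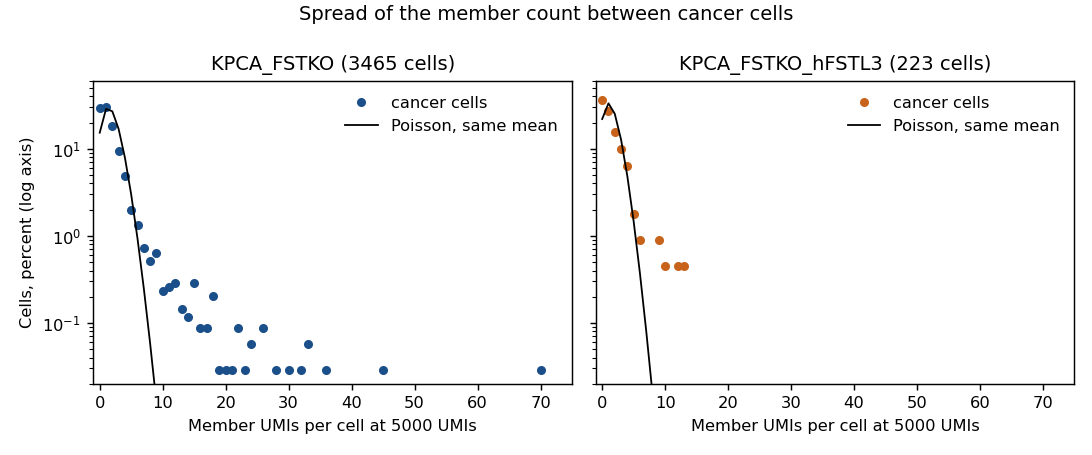
Distribution of the summed member UMIs per cancer cell after thinning to 5000 UMIs (horizontal axis) as percent of cells on a log axis, for both libraries, beside the Poisson distribution of the same mean. The observed cells exceed the Poisson curve at 0 (29.4% against 15.3% in KPCA_FSTKO) and in the tail, which reached 70 UMIs.

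The most extreme KPCA_FSTKO cancer cell had 79466 UMIs, of which 974 (1.23%) were member UMIs, 2.45% of all those in the class. They included 258 of Ifit1, 135 of Oasl1, 100 of Ifit3, 93 of Rsad2 and 64 of Ifit2. The genes differed in how many cells carried them. Before thinning, Bst2 was seen in 2549 of 3751 cancer cells (68.0%), Samd9l in 1698 (45.3%), Irf1 in 1389 (37.0%), Gbp2 in 472 (12.6%), Isg15 in 336 (8.96%) and Ifit1 in 111 (2.96%). A share of 50% of the UMIs was held by 464 cells for Bst2, by 141 for Irf1, by 32 for Gbp2 and by 5 for Ifit1. No class is known to lack these genes. The lowest share for Bst2 among the larger classes was in erythroid cells, 3 of 60 (5.00%), with a median depth of 4451 UMIs against 27364 in cancer cells. Most UMIs of those erythroid cells came from erythroid markers (median 877370 CPM).

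Of 19 members with at least 100 thinned UMIs in KPCA_FSTKO cancer cells, 13 had a variance over mean of at least 1.25, where 24.0% of 9818 genes did, and their median was 1.34 against 1.10 over all genes. Ifit1 had 8.49, or 4.75 without the top cell, Gbp2 3.69, Irf1 2.81 and Bst2 1.65, while Ifi35 (1.04) and Irf9 (1.03) were near counting noise. The same 3465 cells gave a correlation of each member with the summed count of the others, which describes cells of 1 library and has no test. It was at least 0.2 for 13 of the 19 members, where 0.275% of genes reached that value with the member count, and the median was 0.26 against 0.003. Isg15 (0.45), Ifit1 (0.44), Oasl2 (0.41) and Parp14 (0.37) were highest, and Irf9 (0.05) lowest. Oasl1 dropped from 0.22 to 0.09 without the top cell and Isg15 from 0.45 to 0.37. The highest without that cell were Parp14 (0.377), Ifit1 (0.376), Isg15 (0.366) and Oasl2 (0.345). Closest pairs without that cell were Isg15 with Ifit1 (0.38), Ifit1 with Ifit2 (0.29), Ifit1 with Parp14 (0.28) and Gbp2 with Igtp (0.27). Irf1, although it had the second highest total and a variance over mean of 2.81, stayed at 0.12 with the other members. In KPCA_FSTKO_hFSTL3 0 members reached 100 thinned UMIs, so that such values could not be given, and 62.7% and 1.37% of its 1753 genes passed the same 2 limits.

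In KPCA_FSTKO cancer cells, genes outside the list that belong to the same response were higher where the member count was higher. Among the 10 genes most correlated with it over the KPCA_FSTKO cancer cells were Gbp7 (r = 0.41), Cxcl10 (0.37), Iigp1 (0.36), Herc6 (0.34), Rnf213 (0.32), Mndal (0.32), Dtx3l (0.29), Ifi203 (0.27) and Psmb8 (0.25). Cells were ordered by thinned member count in 10 bins of 346 or 347 cells, with 4 to 70 member UMIs in the last. The chemokine gene Cxcl10 was at 74.0 CPM in the last bin and 1.73 over the other 9, a ratio of 42.7 (28.0 to 67.4), the GTPase gene Iigp1 at 147 against 8.53 CPM and Gbp7 at 62.4 against 5.00 CPM. For each of these genes most of the difference lay between the ninth and the last bin. Cxcl10 and Iigp1 were unevenly held between cells, with variance over mean of 12.1 and 6.56, which the counting intervals do not cover. Ratios and correlations of genes outside the list are not given without the top cell. Of 41 other interferon-induced genes with UMIs, 37 had an interval above a ratio of 1 between the last bin and the rest, where 5.84% of 19655 genes outside the list did, and 29 a ratio of at least 2, where 7.89% did. With at least 100 UMIs, 25 of 25 had an interval above 1, beside 9.87% of 9799 genes, and 16 had a ratio of at least 2, beside 0.694%. Ifitm3 (1.66), Ifitm1 (1.28) and Ifitm2 (1.13), antiviral membrane proteins that these epithelial cells held at high levels throughout, were among the smallest.

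Sums of receptor genes and of most markers of other cells showed smaller differences between the bins. The 6 interferon receptor genes summed to 247 CPM in the first bin and 277 in the last (253 to 303), and Ifngr1 alone had an interval above 1 between the last bin and the rest, at a ratio of 1.24 (1.04 to 1.48). Macrophage markers were at 66.9 and 55.5 CPM, neutrophil markers at 7.49 and 4.05, fibroblast markers at 51.3 and 61.3 and acinar genes at 34.6 and 27.7 CPM, and cancer markers at 6038 and 5325 CPM. Some single cancer markers differed more than their sum between the last bin and the rest. Areg was at a ratio of 0.587 (0.475 to 0.719), Wfdc2 at 0.631 (0.575 to 0.692) and Krt19 at 0.705 (0.664 to 0.749). Lbp was at 1.17 (1.05 to 1.31) and Hmga2 at 1.04 (0.997 to 1.07). Lymphocyte markers had 3 UMIs in the last bin and 12 in the rest, a ratio of 2.25 (0.408 to 8.35). The median depth of the first and last bin was 30287 and 28452 UMIs. Over 223 KPCA_FSTKO_hFSTL3 cancer cells, the genes most correlated with the member count were Ptpn13 (r = 0.28), Msi2 (0.28) and Nav3 (0.27). None of them is on the interferon lists read here. B2m, at rank 14 in KPCA_FSTKO (0.20), was at rank 20 in KPCA_FSTKO_hFSTL3 (0.21). In KPCA_FSTKO_hFSTL3, with 22 cells in the last bin, 5 of 31 other induced genes had an interval above 1, beside 3.22% of 14160 genes, and 1, Ifitm1 at a ratio of 0.223, below 1. Ifngr1 there had a ratio of 3.34 (1.86 to 5.74), on 19 UMIs in the last bin. Areg (0.144, 0.0172 to 0.531), Wfdc2 (0.205, 0.0245 to 0.764) and Krt19 (0.589, 0.404 to 0.834) were below 1 there as well. Areg and Wfdc2 had 2 UMIs each in that bin. From the first bin to the last, macrophage markers went from 17.4 to 155 CPM and acinar genes from 617 to 891 CPM. Over all cells outside the last bin they were at 108 and 907 CPM. The last bin over the rest was thus at a ratio of 1.42 (0.801 to 2.39) for macrophage markers and 0.982 (0.789 to 1.21) for acinar genes. Their part in these values was not tested.

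**Figure D5:**
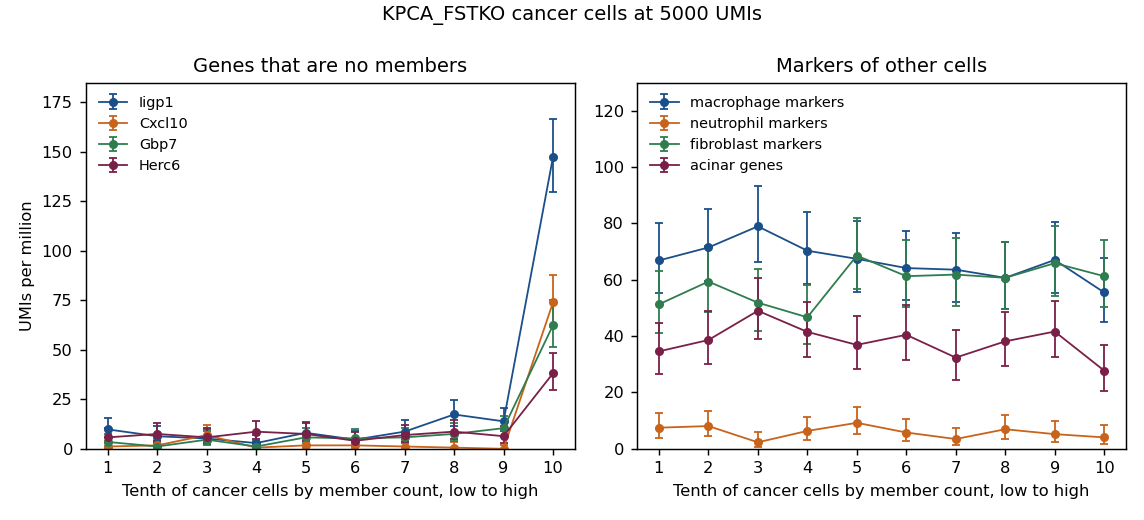
Levels (CPM, counts thinned to 5000 UMIs) of interferon-response genes outside the member list and of markers of other cells, in 10 bins of KPCA_FSTKO cancer cells ordered by member count. Iigp1 steps from 13.9 to 147 CPM between the ninth and the last bin, while macrophage markers go from 67.1 to 55.5 CPM.

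The interferons themselves were almost absent from the counts. Ifna1, Ifna2, Ifna4, Ifna5, Ifnl2 and Ifnl3 had 0 UMIs, and Ifnb1 had 5 UMIs in the KPCA_FSTKO macrophages (0.445 CPM, 0.145 to 1.04) and 0 in its cancer cells. Ifng was found in KPCA_FSTKO lymphocytes, with 35 UMIs (81.5 CPM, 56.8 to 113), and as 1 UMI in the 13 lymphocytes of KPCA_FSTKO_hFSTL3 (7.88 CPM, 0.199 to 43.9). All receptor genes were detected in cancer cells of KPCA_FSTKO, with Ifnar1 at 21.7 CPM, Ifnar2 at 63.9, Ifngr1 at 62.8, Ifngr2 at 86.1, Il10rb at 15.5 and Ifnlr1 at 1.12 CPM. KPCA_FSTKO_hFSTL3 cancer cells held Ifnar1 at 20.4, Ifnar2 at 42.8, Ifngr1 at 61.4 and Ifngr2 at 76.4 CPM. Macrophages of KPCA_FSTKO were higher for Ifnar1 (51.1 CPM), Ifnar2 (164) and Ifngr1 (206) and not for Ifngr2 (69.4). Lymphocytes had 531 CPM of Ifngr1 and 4.66 CPM of Ifngr2.

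A list of 80 further pathway genes, of which 78 had rows, was read in the same way. In cancer cells 10 of 54 with enough UMIs were at least 2-fold lower in KPCA_FSTKO_hFSTL3 and 0 higher, with a median log2 ratio of -0.29, beside 7.18% and 3.09% of all genes and a median of -0.02. With several-class barcodes placed, 6 of 63 were lower and 8 higher, beside 10.6% and 10.7%, and the median was -0.12 against -0.24. The 10 were Oas3, Ifitm1, Ifnlr1, Slfn2, Ifi203, Tlr3, Iigp1, Epsti1, Tgtp2 and Slfn8. Ifitm1 was at 120 against 432 CPM (0.279 times, 0.262 to 0.296), and Iigp1 at 8.74 against 22.5 CPM. The other genes with most UMIs in cancer cells differed less, with Ifitm3 at 890 against 866 CPM, Ifitm2 at 424 against 536, Ly6e at 399 against 361 and Socs3, a feedback inhibitor of JAK signaling, at 64.0 against 125 CPM. In macrophages 2 of 52 pathway genes were higher and 1 lower, beside 1.84% and 1.49% of all genes, and in fibroblasts 3 of 41 were higher and 0 lower, beside 1.44% and 2.08%. Between macrophages and cancer cells of KPCA_FSTKO, 35 of 60 were higher in macrophages and 7 lower, with a median log2 ratio of 1.27, beside 16.2% and 32.5% of all genes and a median of -0.43.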

How the data were processed

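Per the labels, single cells were captured with a 10x Genomics 3′ v2 kit from dissociated tumors. The authors deposited raw UMI counts per gene and barcode, made with Cell Ranger against mm10 (GRCm38); the labels and methods name version 3.1.0, and the matrix header 7.2.0. The 7582 and 4244 deposited barcodes equal the final cell numbers in the study's methods, while the filter stated there (under 20% mitochondrial UMIs, over 200 and under 8000 genes) leaves 6777 and 4041.

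Marker sums in CPM placed barcodes of at least 1000 UMIs with at least 3 marker genes in a class. The thresholds were set after seeing the data, 12 markers shared between classes were left out of the sums, and barcodes past several gates were left out of the classes. Fibroblast markers did not exclude a mesothelial or mural cell, cancer markers a mesothelial cell, or macrophage markers a monocyte or dendritic cell. No doublet caller was run. Counts were summed per class and library. Levels have exact Poisson intervals, shares Clopper-Pearson intervals and ratios exact conditional binomial intervals. A size rule (at least 100 UMIs, at least 2-fold) was applied to all genes in place of a test. Cells were thinned without replacement to 5000 UMIs for spread and correlation. For median log2 ratios and counts above 1, a sum of 0 was set to 3 UMIs. Scripts used Python 3.11.15, numpy 2.4.6, scipy 1.17.1 and pandas 2.3.3, and edgeR 4.0.16 in R 4.3.3 gave TMM factors on the class sums, 2 or 6 at a time, as an alternative. They were checked on simulated counts.

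The members and lists were chosen with earlier results of these data known. Named were all members past the size rule, those with the highest or lowest ratios, the members with most UMIs and those whose highest class was not macrophages, with Ifnb1, Ifng, the receptors, the 5 pathway genes with most UMIs in cancer cells, Fst, Fstl3 and the 10 most correlated genes. Other genes were named after their values were seen, and 1 gene that this rule names is not reported here. Alternatives were all deposited barcodes, stricter gates, placing barcodes of several gates, TMM scaling, other totals, leaving out the top cells or top members, per-cell means, other limits of the size rule and thinning to 2000 UMIs.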

Additional observations from a re-analysis of the deposited data

Results flagged for a closer look

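In 2 members the libraries differed in opposite directions in cancer cells and macrophages, with both intervals away from 0. Bst2 had a log2 ratio of KPCA_FSTKO_hFSTL3 over KPCA_FSTKO of -0.49 in cancer cells (543 against 8973 UMIs) and 0.42 in macrophages (327 against 1081 UMIs). Trim30a was at -0.87 in cancer cells (50 against 1074 UMIs) and 0.53 in macrophages (172 against 525 UMIs). These directions depended on the barcodes and the scaling. With several-class barcodes placed, the cancer ratios were 0.01 for Bst2 and -0.10 for Trim30a, and with TMM factors of 1 fit over 6 class sums the macrophage ratios were 0.08 and 0.20. With 1 library per genotype, the difference between the cell types was not tested.

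The barcodes of KPCA_FSTKO_hFSTL3 that carried markers of several classes were used in no class, yet they held 23129 member UMIs, 76.2% of those in the filtered library, at 419.6 CPM (414 to 425). The 838 such barcodes of KPCA_FSTKO were at 494 CPM (480 to 507).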

How the results depend on the processing

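The values rest on 1 library per genotype, on gates that left 238 cancer cells in KPCA_FSTKO_hFSTL3, and on few UMIs for single members. No paired analysis was possible because each group holds 1 library and no replicate. With barcodes of several classes placed in the class of largest score, the log2 ratio of the libraries in cancer cells reversed to 0.13, that of Rsad2 to 0.64, cancer cells of KPCA_FSTKO_hFSTL3 were at 399.8 CPM, and 3 members were at least 2-fold higher and 1 lower. The cause was not tested. With TMM factors of 1 fit over the 6 class sums, added after seeing the data, the macrophage log2 ratio of the libraries reversed to -0.13, with 0 members higher and 2 lower, and without the 2 fibroblasts of highest member share the fibroblast ratio reversed to -0.10. In the other alternatives run, the summed ratios kept their direction. Of the values for sums, counts and spread, 104 stayed near the reported one, 57 moved and 3 reversed. For Ifit1, Ifit3, Rsad2, Ifih1 and Usp18 in cancer cells, Rsad2 and Irgm1 in macrophages and the 12 higher and 3 lower members between macrophages and cancer cells, 182 values stayed near the reported one, 35 moved and 1, that of Rsad2, reversed.

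With all deposited barcodes, cancer cells of KPCA_FSTKO_hFSTL3 were at 265 CPM, the log2 ratio of the libraries was -0.46 and 9 members were lower. Stricter gates gave 356 and 629 CPM in cancer cells and macrophages of KPCA_FSTKO, 799.7 CPM in macrophages of KPCA_FSTKO_hFSTL3 and a macrophage log2 ratio of 0.35. TMM factors were computed over the 2 sums of each comparison and over all 6 sums. The 6-sum factors gave 796 CPM in macrophages of KPCA_FSTKO, 283 CPM in cancer cells of KPCA_FSTKO_hFSTL3, and log2 ratios of -0.37 between the libraries in cancer cells, 0.0386 in fibroblasts and 1.12 between macrophages and cancer cells. The 2-sum factors gave -0.37 in cancer cells, 0.062 in macrophages, 0.0864 in fibroblasts and 0.96 between the classes. Without acinar and mitochondrial genes in the totals, cancer cells were at 379 and 309 CPM and macrophages of KPCA_FSTKO at 684 CPM. Without the 5% of cells with most members, cancer cells were at 271 and 243 CPM and macrophages at 505 and 643 CPM, the log2 ratios were -0.16 in cancer cells, 0.35 in macrophages, 0.11 in fibroblasts and 0.90 between the classes, and 2 members were lower in cancer cells and 0 higher and 0 lower in macrophages. Means of per-cell shares gave 375 and 719 CPM in cancer cells and macrophages of KPCA_FSTKO, a log2 ratio of 0.94 between them and 2 lower members between the libraries in cancer cells.

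Without the 3 members with most UMIs, the sums were 234 and 194 CPM in cancer cells and 423 and 442 CPM in macrophages, the macrophage log2 ratio was 0.063, and 45.3% of thinned KPCA_FSTKO cancer cells were at 0. Without the 1 cell of highest member share, an alternative chosen after seeing the data, cancer cells of KPCA_FSTKO were at 356 CPM, macrophages at 635 and 695 CPM with a log2 ratio of 0.13, the fibroblast ratio was 0.10, and 0 members were 2-fold higher in macrophages. With a minimum ratio of 1.5, 1 member was higher and 9 lower in cancer cells, and with at least 20 UMIs 8 were lower. Thinned to 2000 UMIs, 57.2% and 64.1% of cancer cells were at 0 and the variance over mean in KPCA_FSTKO was 2.51.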

Other observations

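Rsad2 was the leading member of erythroid cells in both libraries, with 50 of 77 member UMIs in KPCA_FSTKO and 7 of 9 in KPCA_FSTKO_hFSTL3. The next members in the KPCA_FSTKO erythroid cells were Isg15 with 7 UMIs and Bst2 with 6. In neutrophils of KPCA_FSTKO, Rsad2 had 44 UMIs in 4 of 44 cells and Ifitm1, outside the list, 257 UMIs (1927 CPM), against 432 CPM in cancer cells. This gene was chosen after its values were seen.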
